A study of Mus musculus with 46 samples.

Results

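The promoter interactions that scored highest on both diets comprised 3275 pairs of restriction fragments with a CHiCAGO score of at least 20 in the list of the lipid-rich diet (LD) and in that of the carbohydrate-rich diet (CD). A pair was taken without regard to the order of its ends. These pairs were 3.11% of the 105310 pairs listed on both diets and 1.67% of the 195691 pairs listed on either. The pairs were selected on their scores alone, so the scores are given as a description, with no test. Livers came from male C57BL/6 mice that were 5 weeks old at purchase, acclimated for 1 week and then fed 1 of the diets for 20 weeks. The LD, labelled as a high fat diet, supplied 60% of its energy as lipid, 20% as carbohydrate and 20% as protein. The CD, labelled as a low fat diet, supplied 10%, 70% and 20%. All mice were wild type, and diet was the only treatment compared. The paper also reports tolerance tests with injected glucose and insulin in mice on either diet, late in the feeding period. Promoter capture Hi-C and in situ Hi-C were made from 2 samples per diet, RNA-seq from 5 mice per diet, ChIP-seq of H3K27ac from 3 samples per diet and ChIP-seq of Hnf4a and of C/EBPa from 2 samples per diet each. The capture libraries of a diet were pooled before scoring, so a score has no replicate error.

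A promoter is often folded onto distant DNA in the nucleus, and proximity ligation joins fragments that lie close together in space although they are far apart along the chromosome. In promoter capture Hi-C the ligation products of HindIII-cut DNA are pulled down with baits for promoter fragments, and CHiCAGO scores each pair against the number of reads that its distance and the noise of its ends would give. CTCF, a DNA-binding protein, and cohesin, a ring-shaped complex, hold many loops together, most often where a pair of CTCF sites points inwards. H3K27ac is an acetyl mark of active promoters and enhancers. Hnf4a and C/EBPa are transcription factors that bind many enhancers of hepatocytes. A topologically associating domain (TAD) is a stretch of chromosome whose fragments contact each other more than they contact the neighbouring stretch.

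The sequences that show the facing arrangement of CTCF strings at the ends of a pair are given first. The first 4 pairs in order of the lower of their scores were taken in which a core string of the CTCF motif (CCA, any 2 bases, AG, any 2 bases, then GGCA) lay at both ends on the inward-pointing strands. Each line reads 5′ to 3′ along the strand of the match, the match is in capitals, and coordinates are those of the mm9 build (NCBIM37), in which the files were made. The first pair joined the bait of the U1.62 RNA gene to that of Hltf, a SWI/SNF-family helicase, over 496 kb. The left window lay in an intron of Dnajc5b and the right one in an intron of Hltf.
U1.62 end, chr3:19469758-19469800, plus strand: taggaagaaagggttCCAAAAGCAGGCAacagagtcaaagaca
Hltf end, chr3:19959903-19959945, minus strand: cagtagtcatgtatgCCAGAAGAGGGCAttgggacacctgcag
The second pair joined the bait of Parp2 and Rpph1, the RNA of ribonuclease P, to that of the olfactory receptor Olfr750 over 260 kb. The left window lay in an intron of Parp2 and the right one was intergenic.
Parp2 end, chr14:51431134-51431176, plus strand: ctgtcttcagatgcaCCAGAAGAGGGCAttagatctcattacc
Olfr750 end, chr14:51697563-51697605, minus strand: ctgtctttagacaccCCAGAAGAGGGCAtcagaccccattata
The third pair joined the baits of Parp10 and Gpaa1 over 95.2 kb, with the left window in an intron of Parp10 and the right one intergenic.
Parp10 end, chr15:76069692-76069734, plus strand: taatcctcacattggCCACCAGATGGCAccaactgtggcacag
Gpaa1 end, chr15:76166686-76166728, minus strand: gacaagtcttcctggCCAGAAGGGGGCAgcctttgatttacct
The fourth pair joined an intergenic fragment without a bait to the bait of the U1.139 RNA gene over 154.5 kb, where the right window lay in an intron of Bcar3.
Unbaited end, chr3:122015159-122015201, plus strand: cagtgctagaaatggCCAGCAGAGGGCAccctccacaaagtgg
U1.139 end, chr3:122171102-122171144, minus strand: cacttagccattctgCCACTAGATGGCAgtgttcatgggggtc
The unbaited end of the fourth pair overlapped H3K27ac in 6 of 6 libraries and peaks of Hnf4a and C/EBPa in 4 of 4 each. No CTCF binding was measured in these samples, and a match is a description of the letters only.

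Over all 3275 strongest pairs, the string lay at both ends in 187 (5.71%), at 1 end in 1269 (38.7%) and at neither in 1819 (55.5%). The facing arrangement was found in 91 pairs, or 2.78% (95% Wilson interval 2.27% to 3.40%), and the arrangement pointing outwards in 39, or 1.19% (0.872% to 1.62%). Among the 102035 other pairs of both diets these shares were 2.19% and 1.52%. Among pairs with at least 30 on both diets the facing share was 2.17% against 2.21% of the other pairs, so its excess was lost, and the outward share was 0.914% against 1.515%. With 1 strongest pair kept for each group of neighbouring pairs (ends within 20 kb at both ends) the facing share was 3.19% and the outward share 2.005%. The other pairs, at 2.19% and 1.52%, were not grouped in the same way. With the last base left off the string the facing share was 6.96% against 5.545% of the other pairs and the outward share 3.18% against 3.897%. Over 500 kb, 9 of 405 strongest pairs had facing strings and 2 had outward ones. An end without a bait is called a distal end below. The string occurred in 402 of 2265 distal ends (17.7%) and in 15.1% of those of the other pairs. The fragments are of unequal length, and per kb the string occurred 0.0663 times in the former and 0.0547 times in the latter. The letters of an HNF4 site, CAAAGTCCA, occurred 0.0152 and 0.0153 times per kb, and those of a C/EBP site, TTGCNNAA, 0.449 and 0.438 times, counted on both strands.

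Distal ends of the strongest pairs with a peak in every library were ranked by mean height, 189 for Hnf4a and 143 for C/EBPa. The first end of each ranking was paired with Dhrs3, a retinaldehyde reductase. The central 100 bases of the highest Hnf4a peak fell in an intron of Tnfrsf8, 392.1 kb from the Dhrs3 bait, and hold no CAAAGTCCA, so no base is in capitals.
Hnf4a peak, chr4:144871019-144871118, plus strand: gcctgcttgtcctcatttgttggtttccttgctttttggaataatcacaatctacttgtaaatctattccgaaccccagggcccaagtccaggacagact
Its height, in tags normalized by the authors, reached 360.0 and 322 in the LD libraries and 272 and 541 in the CD libraries. The LD values lay between the CD values, and the mean of 374 stood against a median of 38.4 over 189 distal ends with an Hnf4a peak in every library. The central 100 bases of the highest C/EBPa peak, in intergenic DNA 69.3 kb from the same bait, hold 1 match of TTGCNNAA, shown in capitals.
C/EBPa peak, chr4:144550565-144550664, plus strand: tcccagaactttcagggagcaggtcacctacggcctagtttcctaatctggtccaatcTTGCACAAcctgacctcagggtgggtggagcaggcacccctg
Its height reached 113 and 81.5 in the LD libraries and 224 and 173.5 in the CD libraries, with both CD libraries above both LD libraries. An exact permutation test of 2 against 2 libraries cannot give a p-value under 0.3333.

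The median score of the strongest pairs was 26.35 on LD and 28.2 on CD, and the highest were 156.5 and 173. The score was higher on LD in 1416 pairs, higher on CD in 1841 and equal in 18, and in 10 pairs the scores differed by more than 2 times. Just inside the threshold, 469 pairs had a lower score between 20 and 21, and just outside it 568 pairs had a lower score between 19 and 20. Of the 4193 pairs at 20 or above on LD, 78.1% reached it on CD, 917 were listed on CD below 20 and 1 was not listed. Of the 4960 pairs at 20 or above on CD, 66.03% reached it on LD, 1683 were listed on LD below 20 and 2 were not listed. Of the 155 pairs above 38 on at least 1 diet, 134 had a score between 30 and 38 on the other, 15 lay under 30 and 6 were above 38 on both. Whether scores on either side of 38 follow 1 scale cannot be settled from the lists, so the order of pairs by their lower score describes the deposited values only.

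**Figure D1:**
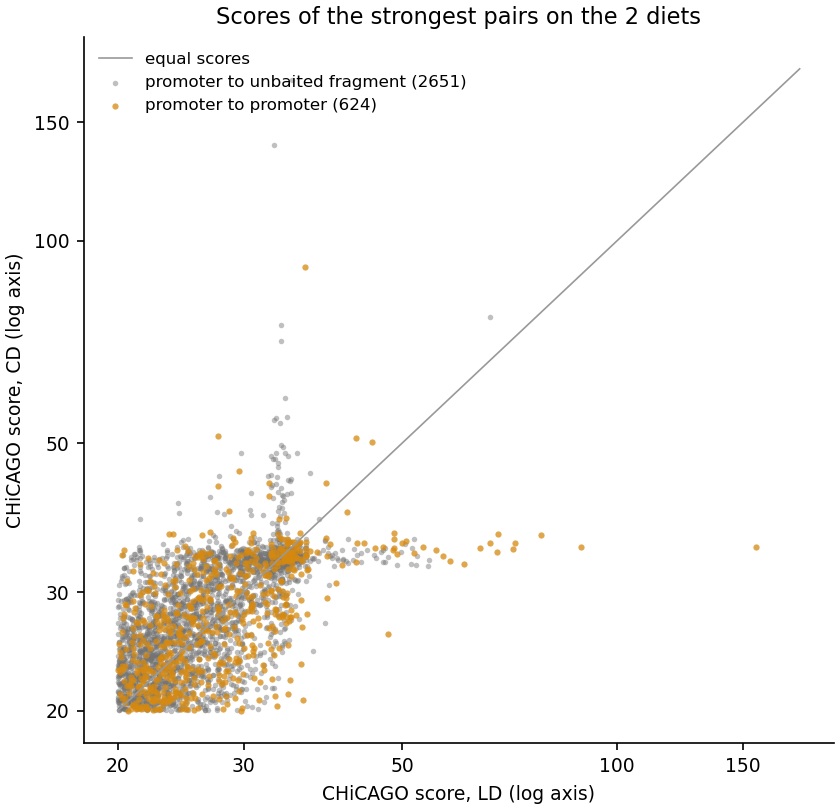
CHiCAGO score on LD (horizontal) against CD (vertical), both on log axes, for the 3275 pairs with at least 20 on both diets, with promoter-to-promoter pairs in orange and the line of equal scores in grey. Most points crowd below 38 on both axes, and pairs above 38 on 1 diet form a band at 30 to 38 on the other.

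The pair with the highest lower score joined Rhob, a small GTPase, to a fragment at chr12:8340019-8341487 in an intron of Hs1bp3, 165.6 kb away. It scored 66.4 on LD and 77.0 on CD. The distal fragment overlapped H3K27ac in 6 of 6 libraries, Hnf4a peaks in 4 of 4 and C/EBPa peaks in 4 of 4. The Hnf4a height there reached 29.2 and 25.8 in the LD libraries and 8.5 and 27.5 in the CD libraries, so that 1 CD library was low and the diets overlapped. The central 100 bases of this Hnf4a peak, chosen for display after its values were seen, hold none of the strings searched.
Rhob distal Hnf4a peak, chr12:8340598-8340697, plus strand: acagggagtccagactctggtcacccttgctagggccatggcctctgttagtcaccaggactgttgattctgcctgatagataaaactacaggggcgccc
Rhob was measured at 23.2, 22.2, 24.7, 22.1 and 26.5 TPM (reads scaled by gene length and library size) in the LD mice and at 22.5, 21.3, 17.9, 17.7 and 19.7 TPM in the CD mice. The diets overlapped, and the log2 fold change of LD over CD was 0.18 ± 0.086 (SE, n = 5 per diet; adjusted p = 0.143 in edgeR's quasi-likelihood fit over all genes, adjusted after Benjamini and Hochberg, as is each adjusted p of a gene below). Rhob was the bait gene of 14 strongest pairs in all.

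Of the 10 pairs with the highest lower score, 7 joined a baited promoter to another one. Dnahc3, a dynein heavy chain, and Abca15, a transporter, were joined over 232 kb with scores of 45.4 and 50.2. Neither of these ends overlapped a peak of any assay in any library, they lay in different TADs on both diets, and Abca15 was listed at 0 TPM in 10 of 10 mice. Nup54, a nuclear pore protein, was joined to Stbd1, a glycogen-binding protein, over 170 kb (scores 43.0 and 50.9). Stbd1 was measured at 83.9, 75.2, 83.1, 80.6 and 76.9 TPM on LD and at 81.4, 85.0, 94.8, 107 and 77.5 TPM on CD, with overlapping diets, and it was called only without CD replicate 5 among the alternatives run (log2 fold change -0.28, adjusted p = 0.0328). Another baited end among the 10 pairs was the fragment of Apoa2, an apolipoprotein of high-density lipoprotein, the nuclear receptor Nr1i3 and Tomm40l. All 6 H3K27ac and all 4 Hnf4a libraries had a peak at this end. Genes of this fragment moved in opposite directions between the diets. Nr1i3, which governs xenobiotic metabolism, was measured at 168, 145, 163, 136 and 129 TPM on LD and at 65.5, 62.7, 108, 103.5 and 103.5 TPM on CD. Every LD mouse was above every CD mouse (log2 fold change 0.67 ± 0.16, adjusted p = 0.00984). Tomm40l, whose start lies in the same fragment, was measured at 6.05, 7.74, 7.76, 7.20 and 8.87 TPM on LD and at 10.9, 11.6, 12.2, 10.3 and 10.2 TPM on CD. The LD mice all lay below the CD mice (log2 fold change -0.63 ± 0.092, adjusted p = 0.00032). Pex2, a peroxisome assembly protein, was joined to Zfhx4, a zinc finger homeobox factor, over 356 kb. Zfhx4 was lower on LD by -0.73 ± 0.12 on the log2 scale (adjusted p = 0.000555), whereas Pex2 differed by 0.04 ± 0.055 (adjusted p = 0.658). The remaining pairs described here were Rasgef1b to an unbaited fragment, Ston2 to an unbaited fragment, Dgkh to Vwa8, Mtap to Ifne and Smarca5 to Usp38, over 124 to 329 kb.

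The strongest pairs had 1461 baited and 2265 distal fragments, and many of the pairs were concentrated on few promoters. Of the baited fragments, 853 had 1 strongest pair, 246 had 2 and 362 had 3 or more, and the 56 with 10 or more held 1121 of the 3275 pairs. Neighbouring pairs share fragments, and when pairs were grouped whose ends lay within 20 kb at both ends, 1097 groups remained, the largest of 181 pairs. Chromosome 12 held 430 strongest pairs, 8.44% of its pairs of both diets, whereas 3.11% of pairs were strongest over the genome. The 5 baited fragments with the most strongest pairs held 337 of them (10.3%).

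Iah1, an esterase, had 89 strongest pairs (84 of them to distal ends), and Cpsf3, the endonuclease of mRNA 3′ processing, shares a fragment with the integrin-binding Itgb1bp1 that had 87. Ywhaq, a 14-3-3 adaptor, had 41. These 3 fragments lie on chromosome 12 between 21291083 and 21424739, and their partners span the same region, so many distal ends were counted for more than 1 of them. Dhrs3 had 82 strongest pairs, all to partners to its right on chromosome 4. Bhlhe40, a clock-related repressor, shares its fragment with 0610040F04Rik and had 41, all to partners to its left on chromosome 6. H3K27ac overlapped 87.8% of the distal ends of Bhlhe40 (mean of 6 libraries) and 63.3% of those of Dhrs3, but 29.2%, 31.5% and 27.8% of those of Iah1, Cpsf3 and Ywhaq. None of the 6 tested genes of these fragments was called by edgeR (beside 24.9% of all genes tested), DESeq2 or limma, and 1 (Cpsf3) had an unadjusted p under 0.05 in edgeR. Dhrs3 was measured at 105, 79.2, 97.5, 124 and 111 TPM on LD and at 109, 110, 112, 113 and 127.5 TPM on CD, with overlapping diets (log2 fold change -0.22 ± 0.10, adjusted p = 0.132). Without LD replicate 4, it passed the test at -0.32 (adjusted p = 0.0168). Bhlhe40 was measured at 61.4, 40.7, 73.3, 90.0 and 68.0 TPM on LD and at 44.5, 58.3, 76.0, 67.2 and 58.0 TPM on CD. Its diets overlapped widely (0.06 ± 0.19, adjusted p = 0.836).

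The median distance between the midpoints of the ends was 225 kb (order interval 217 to 232 kb), with the middle 50% of pairs between 138 and 360 kb and a range of 3.96 to 1002 kb. The other pairs of both diets had a median of 214 kb. Of the strongest pairs, 624 joined a baited fragment to another baited fragment. This promoter-promoter share was 19.1% (95% Wilson interval 17.7% to 20.4%) and stood against 12.7% of the other pairs. The difference was largest in the shortest of the 5 distance classes. Under 100 kb, 43.1% of 527 strongest pairs and 17.2% of the other pairs were promoter-promoter. The shares were 19.1% and 11.5% between 100 and 200 kb and 13.55% and 10.15% between 200 and 300 kb. Between 300 and 500 kb they were 12.1% and 12.2%, and over 500 kb 10.1% and 14.0%. Wilson intervals cover counting error only and take pairs as independent, which pairs of 1 bait are not. When 1 strongest pair was kept for each 20-kb group, the share was 43.3%, and the other pairs were not grouped.

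**Figure D2:**
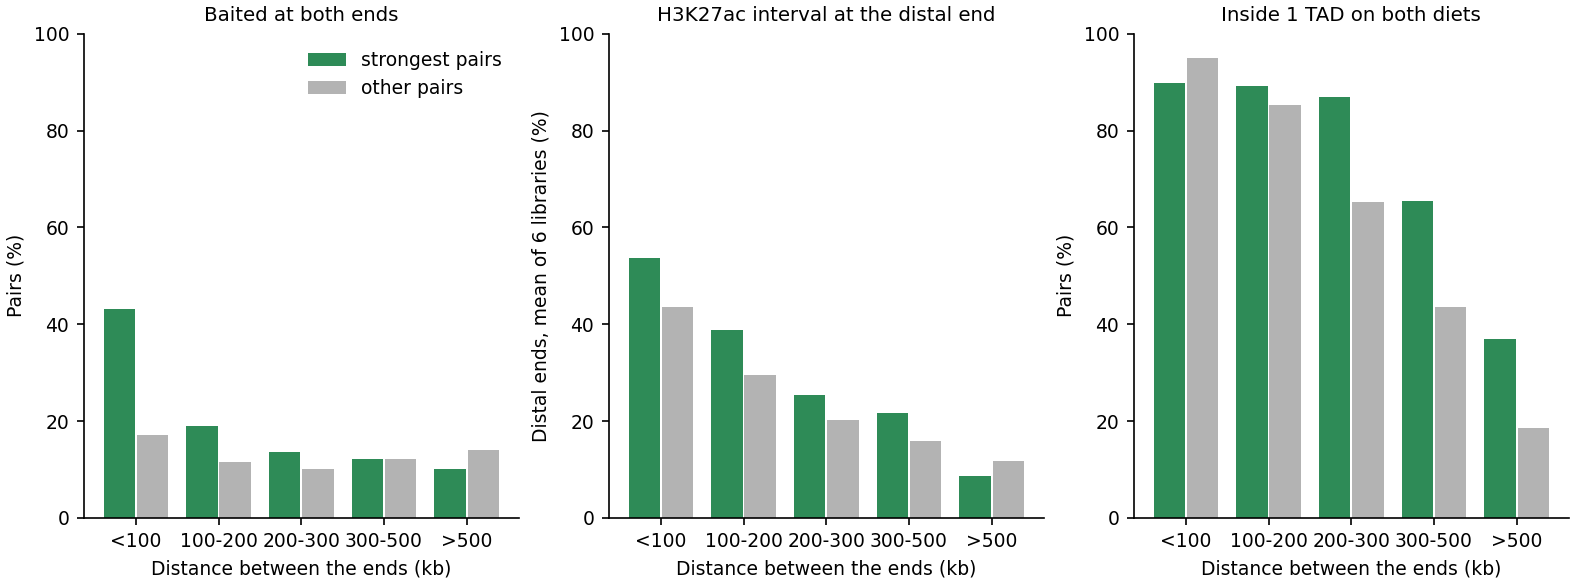
Share of pairs baited at both ends (left), mean share over 6 libraries of distal ends overlapping H3K27ac (centre) and share of pairs inside 1 TAD on both diets (right), by distance in kb, for the strongest pairs (green) and the other pairs of both diets (grey). The promoter-promoter share of the strongest pairs falls from 43.1% under 100 kb to 10.1% over 500 kb, H3K27ac falls from 53.7% to 8.71%, and the strongest pairs exceed the others in the TAD panel beyond 100 kb.

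Most strongest pairs stayed within a domain. The ends lay in 1 TAD on both diets in 77.1% (75.6% to 78.5%) of the strongest pairs and in 66.1% of the other pairs. The share was 79.8% with the LD domains and 80.5% with the CD domains. Under 100 kb the strongest pairs had the lower share, 89.8% against 94.9%. It was 86.9% against 65.2% between 200 and 300 kb, 65.5% against 43.6% between 300 and 500 kb and 37.0% against 18.7% over 500 kb. TADs were called on pooled libraries, and the lists give no replicate of a boundary. The TAD share increased over the steps of the lower score, from 66.1% on LD at scores of 5 to 7.5 to 80.8% at 30 and over.

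Of the 2265 distal ends, 1037 (45.8%) were intergenic, 660 (29.1%) intronic, 541 (23.9%) touched an exon but no gene start and 27 (1.19%) held a gene start. Among the distal ends of the other pairs, 40.99% were intergenic and 27.8% touched an exon. The baited gene was seldom the nearest one. In 174 of 2119 strongest pairs with a RefSeq gene at the bait (8.21%), the gene start nearest to the distal end was that of the baited gene, against 7.38% of the other pairs. No gene start lay between the ends in 31.3% of the strongest pairs and in 22.9% of the others.

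H3K27ac was the most frequent of the marks measured at distal ends. Intervals called in each library overlapped 29.4%, 31.04% and 28.8% of the 2265 distal ends in the LD libraries and 27.7%, 27.5% and 26.1% in the CD libraries. Each LD library was above each CD library. The mean was 29.8% ± 1.14 (SD, n = 3) on LD and 27.1% ± 0.877 (SD, n = 3) on CD, and the exact two-sided permutation test gave p = 0.10, the smallest that 3 against 3 libraries allow. The distal ends of the other pairs showed the same order, 26.6% to 27.8% on LD and 24.4% to 25.6% on CD, and the LD libraries held 53821 to 56987 intervals and the CD libraries 48156 to 51608. The part of the number of intervals in this order was not tested. In all 6 libraries the distal ends of the strongest pairs were covered more often than those of the other pairs, 28.4% ± 1.73 against 26.1% ± 1.26 (SD, n = 6), a difference of 2.32 percentage points (range 1.71 to 3.24; exact permutation p = 0.0313, the smallest possible). The libraries share the same fragments, so this p-value measures the spread between libraries alone. The excess depended on the baits that were counted. Without the 5 baited fragments with the most strongest pairs the difference was 0.301 percentage points, in 4 of 6 libraries, with an exact permutation p of 0.313. With 1 strongest pair for each group of neighbouring pairs, against other pairs that were not grouped, it was 4.90 percentage points. At a score of at least 30 it was 7.34, and both excesses were seen in 6 of 6 libraries. Both settings kept the 5 most-paired baited fragments, whose part in these values was not tested. Among pairs of equal distance the strongest pairs were covered more often up to 500 kb, 53.7% against 43.5% under 100 kb and 25.3% against 20.1% between 200 and 300 kb, and less often over 500 kb, 8.71% against 11.6%.

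Hnf4a peaks overlapped 14.8% and 14.6% of the distal ends in the LD libraries and 11.3% and 14.5% in the CD libraries. The first CD library was low, and it held 35143 peaks where the other 3 held 44247 to 47992. C/EBPa peaks overlapped 12.6% and 12.8% on LD and 14.2% and 13.6% on CD. Each CD library was above each LD library, and the CD libraries held 41713 and 46371 peaks against 38281 and 39310. Neither diet difference could reach an exact permutation p below 0.3333 with 2 against 2 libraries. Counted as peaks per kb of fragment, the C/EBPa difference of LD minus CD was 0.000681, of the opposite sign to the -1.21 percentage points in the share of fragments. In each of the 4 libraries of either factor the strongest pairs exceeded the other pairs. The mean was 13.8% ± 1.68 against 11.5% ± 1.43 for Hnf4a and 13.3% ± 0.736 against 10.8% ± 0.465 for C/EBPa (SD, n = 4; in an exact permutation test 4 libraries of 1 sign give no p under 0.05). Without the 5 most-paired baited fragments the differences were 1.88 and 2.38 percentage points.

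**Figure D3:**
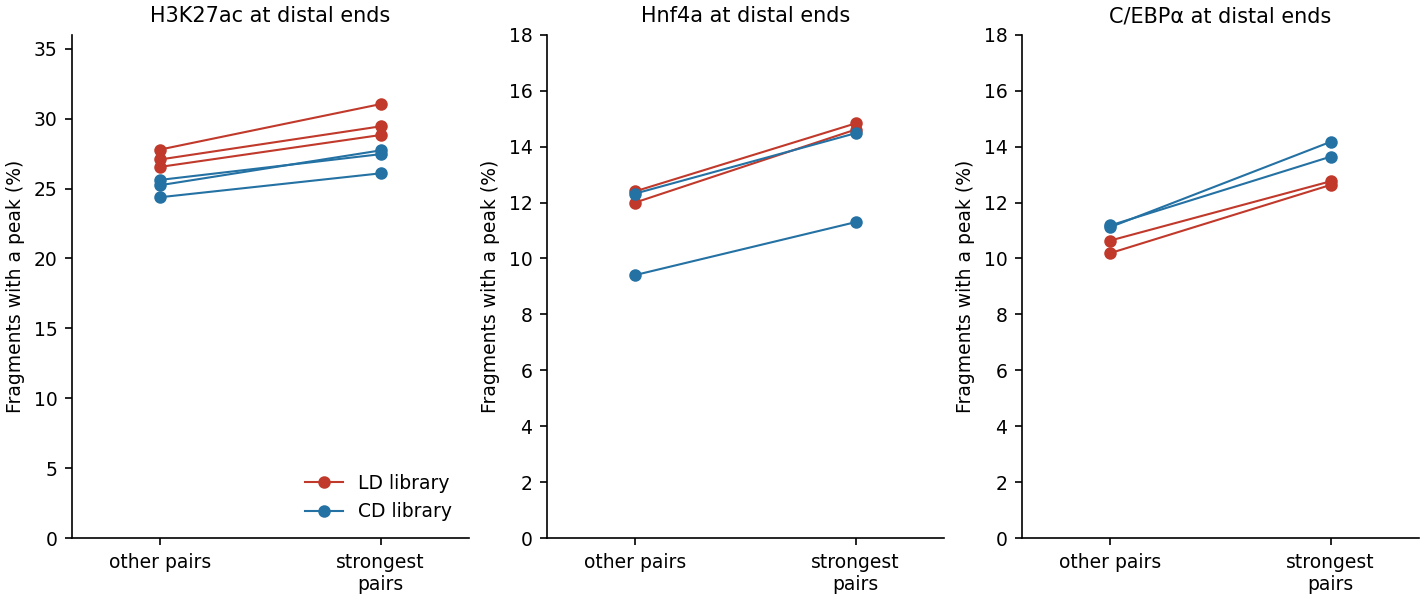
Percentage of distal fragments with a peak in each ChIP-seq library (LD red, CD blue), for the other pairs of both diets (left of each panel) and the strongest pairs (right), with a line for each library and an axis from 0. Every line rises from left to right, by 1.71 to 3.24 percentage points for H3K27ac.

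About 50.1% of the distal ends (1135) had no peak of any of the assays in any library, and 83 (3.66%) had a peak of all 3 assays in every library. For the distal ends of the other pairs these shares were 55.4% and 2.87%. H3K27ac was present in all 6 libraries at 465 distal ends (20.5%) and absent from all 6 at 1393 (61.5%). Distal ends with a string of CTCF letters overlapped H3K27ac in 37.0%, and those without it in 26.6%, on the mean of 6 libraries. For the other pairs the shares were 33.1% and 24.9%. Both features were more frequent in longer fragments, where the string went from 5.17% of distal ends under 1 kb to 44.6% at 8 kb and over and H3K27ac from 20.6% to 45.7%, and the part of length in this difference was not tested. At the baited ends, which hold the promoters, the shares were 66.05% for H3K27ac, 38.6% for Hnf4a and 34.0% for C/EBPa.

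Few distal ends had a mark on 1 diet only. H3K27ac was present in all LD and no CD libraries at 14 distal ends of the strongest pairs (0.618%), beside a background of 0.675% of all distal ends of pairs of both diets. It was present in all CD and no LD libraries at 6 (0.265%), beside a background of 0.2%. With at least 2 of 3 libraries required, the counts were 59 and 22. For this and the following alternatives no share over all distal ends was counted. The counts also moved with single libraries, to 22 to 37 on LD without any 1 LD library or without CD replicate 1 or 2, and to 11 to 15 on CD without LD replicate 1 or 2 or CD replicate 1 or 3. For Hnf4a 17 distal ends (0.751%) were marked on LD only and 6 (0.265%) on CD only, beside backgrounds of 0.826% and 0.338%. For C/EBPa 32 (1.41%) were marked on LD only and 27 (1.19%) on CD only, beside backgrounds of 1.11% and 0.655%. Of 12 tested genes baited opposite the H3K27ac ends of LD, 4 were called by edgeR, 3 higher on LD and 1 higher on CD, beside the background of 24.9% called among all genes. They were Vcpkmt, a protein methyltransferase (0.85 ± 0.18, adjusted p = 0.00337), Saa3, an acute-phase apolipoprotein, Ptger4, a prostaglandin receptor, and Thrb, the thyroid hormone receptor beta. Saa3 was measured at 48.5, 41.7, 25.4, 21.4 and 17.8 TPM on LD and at 7.33, 10.1, 12.1, 5.15 and 9.25 TPM on CD, with every LD mouse above every CD mouse (log2 fold change 1.75 ± 0.31, adjusted p = 0.0022). Saa3 has close copies, and reads that fit several copies may be assigned to the wrong one. Ptger4 was higher on LD by 1.15 ± 0.31 (adjusted p = 0.0136) and Thrb lower by -0.31 ± 0.086 (adjusted p = 0.0154) on the log2 scale, and Thrb was not called with limma on log2(TPM + 1) (adjusted p = 0.114). The values of the 8 genes that were not called lay between -0.21 and 0.48. The value of Slc40a1, the iron exporter ferroportin, was -0.21 ± 0.10 (adjusted p = 0.151), and without LD replicate 2 it passed the test at -0.30 (adjusted p = 0.0225). Opposite the ends of CD 2 genes were tested, Pxk and Rpp14, with log2 fold changes of -0.047 ± 0.072 and -0.0044 ± 0.065 (adjusted p = 0.664 and 0.968). Of the 6 ends of CD, 3 were paired with 1 bait of Gm16133 on chromosome 13.

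The baited fragments of the strongest pairs held the starts of 1348 genes of the RNA table, and 275 of the 1461 fragments held no RefSeq start. Their median level over the mice was 3.54 TPM, against 2.40 TPM for all 16136 baited genes and 2.78 TPM for the other genes with a pair on both diets. Expression was spread widely, with 193 genes (14.3%) listed at 0 in every mouse, 319 (23.7%) above 0 and below 1 TPM and 92 (6.82%) above 100 TPM. The median per mouse lay between 3.24 and 3.93 TPM on LD and between 3.05 and 3.31 TPM on CD, so the diets overlapped. Genes with at least 1 distal end that overlapped H3K27ac in 6 of 6 libraries had a median of 8.48 TPM (212 genes), and genes whose distal ends had no H3K27ac in any library had a median of 0.627 TPM (256 genes). The genes of strongest pairs over 500 kb had a median of 1.46 TPM where those of other pairs of both diets at this distance had 2.37 TPM. Between 100 and 200 kb the medians were 5.65 and 3.69 TPM. In liver tissue, fewer cells of a type and less RNA per cell cannot be told apart.

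Among the genes of highest level were Rpph1 and the apolipoproteins of the plasma. Apoa1, the main protein of high-density lipoprotein, was measured at 12462, 13044, 11586, 12313 and 11737 TPM on LD and at 14175, 13537, 11543, 13798 and 13755 TPM on CD. The diets overlapped through 1 low CD mouse (log2 fold change -0.20 ± 0.090, adjusted p = 0.106). Apoa4, an apolipoprotein of triglyceride-rich particles, was measured at 1971, 2439, 6877, 5882 and 8407 TPM on LD and at 1755, 1335, 1293, 1473 and 1499 TPM on CD. Every LD mouse was above every CD mouse, and the LD mice spread over 1971 to 8407 TPM (log2 fold change 1.70 ± 0.38, adjusted p = 0.00978). Apoa1 and Apoc3 were paired at 220 kb, and Apoa4 at 231 to 246 kb. Inmt, a methyltransferase, was measured at 1092, 996, 761, 788 and 465 TPM on LD and at 1661, 1683, 2054, 1372 and 1159 TPM on CD. All LD values were lower (log2 fold change -1.02 ± 0.24, adjusted p = 0.00984). Pgrmc1, a haem-binding membrane protein, was higher on LD in all mice by 0.34 ± 0.073 on the log2 scale (adjusted p = 0.00402).

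The genes of the strongest pairs were called between the diets about as often as all genes. Of 13494 genes tested by edgeR's quasi-likelihood test, 24.9% were called at an adjusted p under 0.05 and a fold change above 1.2. Of the 927 genes of strongest pairs that passed the filter on low counts, 231 (24.9%) were called, 135 higher on LD beside a background of 13.8% and 96 higher on CD beside a background of 11.1%. The other 421 were not tested. Among the 231, the diets did not overlap in CPM in 149 (16.1% of those tested), beside a background of 15.9%. With limma on log2(TPM + 1) the split was 163 higher on LD and 49 higher on CD. There 76.9% of the calls were higher on LD, against 58.4% by edgeR, and over all genes the share rose from 55.4% to 75.1%. Markers of other cell types were summed in each mouse. Summed TPM of stellate cell markers lay between 334 and 551 on LD and between 269 and 318 on CD (4 of 8 markers called higher on LD), that of macrophage markers overlapped at 690 to 1563 and 430 to 824 (1 of 10), that of cholangiocyte markers 51.4 to 149 and 19.5 to 34.9 (1 of 6), and that of adipocyte markers 9.09 to 84.2 and 0.189 to 2.60, with Plin1 and Lep listed at 0. The sums overlapped for endothelial markers, at 269.8 to 374 and 290.2 to 339 (1 of 8), and for lymphocyte markers, at 8.13 to 17.9 and 7.27 to 9.49 (2 of 8). Hepatocyte markers summed to 111078 to 128605 TPM on LD and to 109376 to 123807 TPM on CD, with 1 of 10 called higher on LD and 3 higher on CD. The part of these cells in the calls was not tested.

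The most changed genes with separated diets included Fabp5, a fatty acid binding protein. It was measured at 15.2, 25.02, 19.5, 17.3 and 24.3 TPM on LD and at 511, 450.1, 108, 426 and 207 TPM on CD. All CD mice were above all LD mice, over a wide spread (log2 fold change -4.16 ± 0.46, adjusted p = 0.000367). Fabp5 had 4 strongest pairs at 226 to 289 kb, and 2 of its 3 distal ends overlapped H3K27ac in all 6 libraries. Adgrf1, an adhesion receptor, was measured at 0 to 0.555 TPM on LD and at 13.6, 14.8, 5.74, 20.4 and 11.6 TPM on CD, with separated diets (-5.69 ± 0.61, adjusted p = 0.000296). Mogat1, which makes diacylglycerol, was measured at 13.2, 10.2, 26.99, 22.6 and 23.1 TPM on LD and at 3.14, 2.19, 5.10, 1.16 and 3.34 TPM on CD. All LD mice were above all CD mice (2.59 ± 0.38, adjusted p = 0.000849). Avpr1a, the liver vasopressin receptor, was lower on LD by -2.46 ± 0.19 (adjusted p = 8.57e-06), at 1.55 to 3.51 TPM against 11.4 to 14.2 TPM. Fignl1 and Dtl, which act in DNA repair and replication, and the keratin Krt23 were higher on LD by 2.66 ± 0.32, 2.24 ± 0.24 and 2.21 ± 0.31 (adjusted p = 0.000104, 3.96e-05 and 0.00039). Serpina3c, which has close copies, was lower on LD by -2.06 ± 0.51 (adjusted p = 0.0102).

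**Figure D4:**
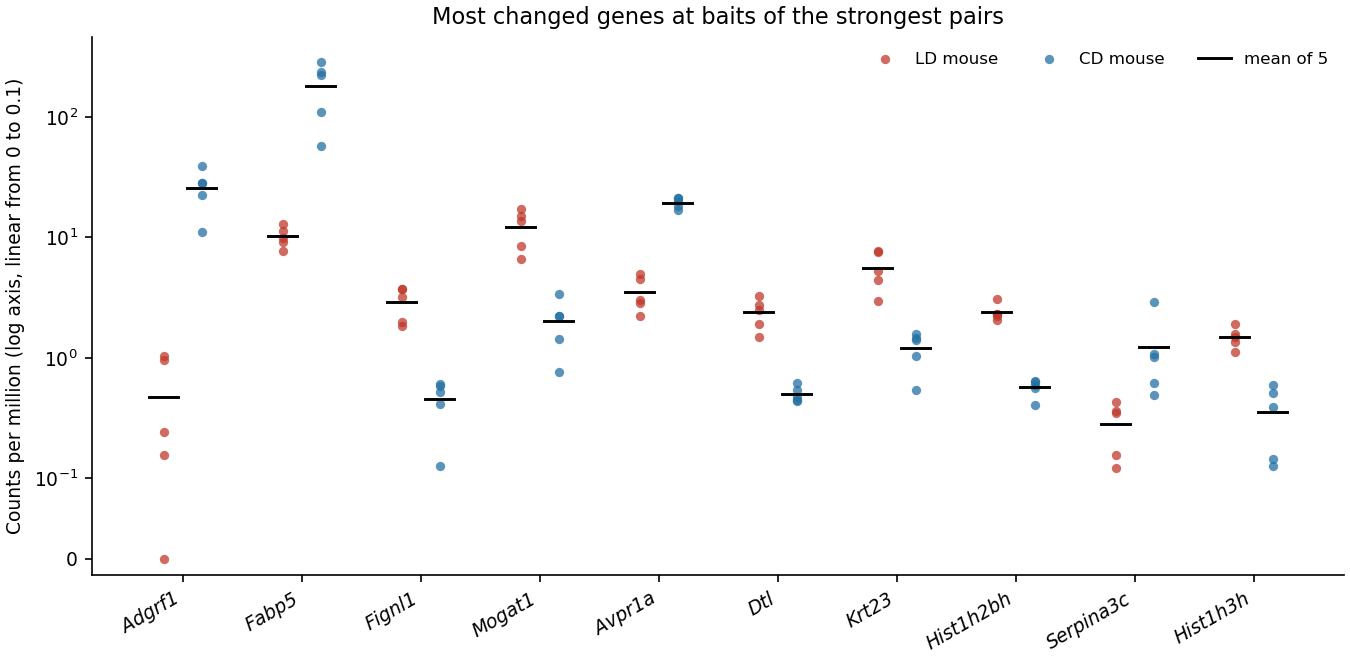
CPM (counts scaled to library size) in each of 5 LD mice (red) and 5 CD mice (blue) for the 10 most changed genes at baits of the strongest pairs with separated diets, on a log axis that is linear from 0 to 0.1, with black bars for the means of 5 mice. Adgrf1, Fabp5, Avpr1a and Serpina3c lie higher on CD and the other 6 genes higher on LD, with no overlap between the diets.

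Replication-dependent histone genes, many of which lie in a cluster on chromosome 13, encode the proteins that package new DNA and were frequent among the baits. Of 63 baited histone genes, 27 (42.9%) had a strongest pair, against 8.35% of all baited genes. Several of these genes share a fragment, and 27 of the 623 pairs of both diets with a histone bait were strongest (4.33%, against 3.11% of all pairs of both diets). Of these 27 pairs, 17 joined a histone gene to another histone gene, over 6.71 to 322 kb with a median of 184 kb, and 6 of the 17 lay in 1 TAD on both diets. Of the 24 histone genes of strongest pairs that were tested, 14 were higher on LD by edgeR, beside a background of 13.8%, and the median log2 fold change was 0.81. Over all histone genes tested the numbers were 31 of 51 and 0.86. No histone gene of a strongest pair was higher on CD by edgeR, DESeq2 or limma, and 0 were lower on LD at an unadjusted p under 0.05. Hist1h2bh was measured at 7.46, 10.97, 8.26, 7.76 and 9.15 TPM on LD and at 2.07, 2.12, 1.95, 2.23 and 1.401 TPM on CD, with every LD mouse above every CD mouse (2.08 ± 0.20, adjusted p = 1.84e-05). The most abundant, Hist1h4h, had a value of -0.17 ± 0.11 (adjusted p = 0.275). Histone genes are near-identical in sequence, which leaves the split of reads between them uncertain. Their baited fragments had a median of 86.2% unique 31-mers. All baited ends of the strongest pairs had 95.9% and the distal ends 97.8%.

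Early response and growth regulators had a strongest pair in 11 of 31 baited (35.5%), against 8.35% of all baited genes. This list was chosen with earlier results of these data known. By edgeR 3 of these 11 were higher on LD, beside a background of 13.8%, 2 were higher on CD, beside 11.1%, and 6 were not called. Myc, a growth factor-induced transcription factor and 1 of the 6, stood at 0.80 on the log2 scale (adjusted p = 0.0641) and was called by DESeq2 (0.0313), by limma on log2(TPM + 1) (0.0489) and without CD replicate 4 (0.00818). Ier2, an immediate early gene and 1 of the 2, had -0.38 (adjusted p = 0.0313) and lost the call with limma on log2(TPM + 1) (0.0905) and without LD replicate 1, 3 or 5 or CD replicate 2 or 4 (0.0681 to 0.087). Jun, a subunit of the AP-1 factor, was measured at 10.6, 14.7, 24.4, 17.6 and 22.7 TPM on LD and at 5.46, 6.99, 8.59, 7.91 and 7.44 TPM on CD. All LD mice were above all CD mice (1.23 ± 0.20, adjusted p = 0.00118). Irs1, the adaptor of the insulin receptor, had 11 strongest pairs at 764 to 980 kb, and none of its distal ends overlapped H3K27ac in any library. It was measured at 5.58, 3.87, 5.14, 4.49 and 6.72 TPM on LD and at 6.49, 10.8, 10.4, 6.33 and 6.38 TPM on CD. The diets overlapped in TPM but not in CPM, the scale of the test, at 19.15 to 29.9 against 31.6 to 53.9 CPM (log2 fold change -0.73 ± 0.18, adjusted p = 0.0106). Gadd45g, a stress-induced regulator of growth arrest, had 19 strongest pairs at 306 to 398 kb, of which 6 distal ends overlapped H3K27ac in all 6 libraries. Its level was 24.2, 4.18, 5.39, 3.85 and 5.91 TPM on LD and 7.86, 7.82, 11.6, 5.17 and 2.71 TPM on CD. The LD mice included 1 high value, and the diets overlapped (0.23 ± 0.59, adjusted p = 0.807). Without that mouse, LD replicate 1, the log2 fold change was -0.63 (adjusted p = 0.19). Ccnd1, the cyclin of G1 phase, was higher on LD by 0.70 ± 0.19 (adjusted p = 0.0205), and without CD replicate 4 the adjusted p was 0.0508.

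Developmental transcription factors had a strongest pair in 6 of 58 baited (10.3%), at long distances. En1, Emx2, Sox2, Nkx6-1 and Dlx5, which pattern the embryo, were listed at 0 TPM in 10 of 10 mice. Their strongest pairs spanned 451 to 877 kb, and none of their distal ends overlapped H3K27ac in any library. Emx2 had 9 such pairs, En1 6 and Sox2 4. Tbx3, a T-box factor, had 2 at 787 and 791 kb and was measured at 5.12, 3.60, 5.86, 5.91 and 5.399 TPM on LD and at 7.64, 7.95, 5.92, 6.71 and 6.76 TPM on CD. The CD mice lay above the LD mice by a small gap at 5.91 against 5.92 TPM, and the diets overlapped in CPM (log2 fold change -0.51 ± 0.13, adjusted p = 0.0111). Of 31 baited Hox genes, 5 had a strongest pair, none of them passed the filter on low counts and each was under 1 TPM. Olfactory and vomeronasal receptors had a strongest pair in 45 of 812 baited (5.54%), all under 1 TPM.

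Genes of hepatocyte function were spread among these lists. Of 18 baited hepatocyte transcription factors, 4 had a strongest pair (22.2%). By edgeR Nr1i3 was called higher on LD, beside a background of 13.8%, and Cebpb, Onecut1 and Bcl6 were not. Bcl6, a transcriptional repressor, stood at -1.90 on the log2 scale (adjusted p = 0.0628), and it was called by DESeq2 (adjusted p = 0.0122) and without CD replicate 4 or 5 (adjusted p = 0.0446 and 0.0183). Onecut1 was measured at 5.42, 4.09, 6.52, 4.17 and 2.02 TPM on LD and at 3.53, 3.77, 6.16, 41.8 and 22.4 TPM on CD, where 2 CD mice were high (-1.85 ± 0.77, adjusted p = 0.111 by edgeR and 0.042 by DESeq2). Plasma proteins had a strongest pair in 6 of 34 baited (17.6%), with Apoa4 and Saa3 called higher on LD, beside 13.8% of all genes. In lipid and glucose metabolism 3 of 35 had one (8.57%). By edgeR 1 of them was called higher on LD and 1 higher on CD, beside backgrounds of 13.8% and 11.1% of all genes. Elovl6, which elongates fatty acids, was measured at 76.4, 71.1, 96.3, 64.8 and 100.2 TPM on LD and at 155, 153, 146, 123 and 119 TPM on CD, with every CD mouse above every LD mouse (-0.85 ± 0.12, adjusted p = 0.000247). Its 1 strongest pair, at 232 kb, had H3K27ac at the distal end in all 6 libraries. Elovl5, another elongase, was measured at 891, 906, 1193, 1267 and 1458 TPM on LD and at 854, 856.5, 630, 753 and 1021 TPM on CD. The diets overlapped (0.39 ± 0.15, adjusted p = 0.0685), and it was called by DESeq2 (0.0405), by limma on log2(TPM + 1) (0.0469) and without LD replicate 1 or 2 or CD replicate 5 (0.0314 to 0.0415). Fgf21, a fasting hormone of the liver, was measured at 6.71, 15.2, 28.7, 21.2 and 27.8 TPM on LD and at 7.99, 6.64, 3.43, 8.42 and 9.98 TPM on CD. The diets overlapped through 1 low LD mouse (1.36 ± 0.39, adjusted p = 0.0264), and leaving out LD replicate 3, 4 or 5 or CD replicate 2 or 4 gave adjusted p-values of 0.0509 to 0.0656, and testing without the filter on low counts gave 0.05075. Cytochromes P450, the monooxygenases of detoxification, had a strongest pair in 2 of 59 baited (3.39%). Cohesin and CTCF genes had none in 9.

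Both genes were expressed at 1 TPM or above in 214 of the 424 promoter-promoter pairs with RefSeq genes at both ends (50.5%), 1 gene was in 131 (30.9%) and neither was in 79 (18.6%). For the other promoter-promoter pairs these shares were 45.2%, 31.7% and 23.1%. No test was made of these shares, since pairs share genes.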

How the data were processed

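The strongest pairs and the gene lists were chosen with earlier results of these data known. Liver samples were grouped by diet from the labels. Bowtie 0.12.8, Picard 1.110, SICER, HOMER, bedtools, STAR 2.5, Subread and featureCounts 1.5.0-p1 are named in the submitters' processing notes, with the build mm9. The authors deposited raw counts per RefSeq gene and TPM values (the TPM column of 1 CD mouse carries no matching number and is called unnumbered). CHiCAGO scores were computed by the authors on the pooled capture libraries of a diet, and the deposited lists hold scores of 5 and over within 1 Mb. The deposited HOMER lists give a signal per peak, the tag count normalized by the authors, for each Hnf4a and C/EBPa library against its input. The SICER intervals of H3K27ac hold positions only. TADs were called by the authors on summed Hi-C libraries. The deposited table of the authors' own comparison holds fold changes and adjusted p-values, which were not used. Of the columns of values per sample, 0 were left out.

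Counts (31707963 to 39012699 per RNA library) were scaled by TMM, filtered by filterByExpr and tested with edgeR 4.0.16 in R 4.3.3 (quasi-likelihood, robust, Benjamini-Hochberg adjustment over all 13494 genes tested, called at 0.05 and a fold change above 1.2). The p-values measure the spread between these samples. Peaks were counted at a fragment from 1 bp of overlap. Libraries were compared by exact permutation tests in Python 3.11.15 with scipy 1.17.1, shares with 95% Wilson intervals, which cover counting error only. Motif strings were searched on both strands of whole fragments with pysam 0.24.0, and the uniqueness of fragments by 31-mers every 20 bp. All 69416 fragments begin at a HindIII site of NCBIM37. On simulated counts for LD against CD over 13550 genes, 99 of 100 genes changed by 2 times and 75 of 100 changed by 1.5 times were recovered, with 11 false calls.

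Alternatives were score thresholds of 10 and 30, the distance between fragment edges, gene starts in place of baits, other overlaps and peak heights, pairs of 100 to 500 kb, other TAD and motif definitions, DESeq2 1.42.0, its size factors, no filter, limma 3.58.1 on log2 TPM with 1 or 0.1 added, a replicate block and the omission of each library. The omission of the 5 most-paired baits, of fragments under 80% unique, of histone genes and of neighbouring pairs was added after the data were seen. Named were the 10 pairs with the highest lower score, the 5 baited fragments with the most pairs, the 10 genes of highest TPM, the 10 called genes of largest fold change with separated diets and at least 1 CPM on a diet, and genes of the lists. Genes baited opposite ends marked on 1 diet, further histone genes and the Rhob peak were named after their values were seen. The partner of 1 of the 10 pairs is not reported here.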

Additional observations from a re-analysis of the deposited data

Results flagged for a closer look

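In 98 groups of 5 mice, made in each diet of the TPM values of the genes of highest level, of largest change and of 28 others whose values are given, and of the median over the genes of strongest pairs, 7 held a mouse far from the others by Dixon's ratio, and chance gives about 1 in 20. The unnumbered CD library was low for Apoa1, at 11543 TPM where the other CD mice were at 13537 to 14175, and high for Car3, a carbonic anhydrase, at 5466 TPM where the others were at 3546 to 4088. CD replicate 4 was high for Serpina3c, at 3.17 TPM where the others were at 0.525 to 1.11. It was also high for Myc, at 2.52 TPM against 0.879 to 1.35. LD replicate 1 was high for Myc, at 4.25 TPM against 1.77 to 2.25, and for Gadd45g, at 24.2 TPM against 3.85 to 5.91. CD replicate 5 was high for Dhrs3, at 127.5 TPM against 109 to 113. Serpina3c stayed called as lower on LD under each alternative that was run, and Car3 passed the test when CD replicate 3 of the counts was left out (log2 fold change 0.41, adjusted p = 0.0406 by edgeR).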

How the results depend on the processing

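With a score of at least 10 on both diets there were 21770 pairs, with at least 30 there were 875, and 1097 remained with 1 pair per 20-kb group. The grouping was applied to the strongest pairs alone, and the other pairs were not grouped. The median distance was 241.6 kb without the 5 most-paired baits and 208 kb with 1 pair per group. The promoter-promoter share was 16.45% at a score of 10, 20.9% without those baits and 43.3% with 1 pair per group. The median TPM was 3.13 at a score of 30, 5.71 with genes weighted by their pairs and 5.66 for genes above 0 (3.45 to 3.63 without 1 mouse). Calls higher on CD fell to 49 and 51 with limma on log2 TPM with 1 and 0.1 added. Over all genes they fell to 5.48% and 5.77%, from 11.1%. Without 1 library there were 198 to 233 calls (117 to 135 higher on LD and 77 to 100 higher on CD). The shares called higher on LD were 12.55% to 14.52% of those tested, beside 11.98% to 13.93% of all genes. For CD they were 8.26% to 10.74%, beside 8.83% to 11.71%. H3K27ac at distal ends was 33.5% at a score of 30, 26.5% without the 5 baits (excess over other pairs 0.301, no longer past the threshold), 31.1% with 1 pair per group and 16.1% by bases covered. Without 1 library the excess was 2.14 to 2.44, where 5 libraries allow no p under 0.0625. Hnf4a was 17.6% with 1 pair per group, 11.7% with whole peaks, 7.99% with the upper part of peaks by height and 0.0518 peaks per kb. C/EBPa was 12.2% and 14.4% at scores of 10 and 30, 16.2% with 1 pair per group, 10.7% with whole peaks, 8.48% with the upper part of peaks and 0.0476 peaks per kb, on which scale LD minus CD reversed to 0.000681. Ends with H3K27ac on 1 diet numbered 59 on LD and 22 on CD with 2 of 3 libraries, and 14 to 37 and 8 to 15 without 1 library. No background over all distal ends was counted for these settings. The share inside 1 TAD was 73.1% and 78.7% at scores of 10 and 30, 73.8% with 1 pair per group and 86.7% with a tolerance of 20 kb. Facing CTCF strings were 2.17% at a score of 30, against 2.21% of the other pairs, and 6.96% with the string shortened by its last base. The cause of these moves was not tested, beyond the looser and stricter definitions themselves. Of 1280 combinations of 80 named genes and alternatives, 1197 stayed as in the main test, called or not called. A call was lost in 45, gained in 38 and reversed in direction in 0.

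Replicate numbers are shared between the diets, but the deviations of mice with the same number correlated at -0.078, 0.191, 0.014, 0.014 and -0.042, so they were not taken as pairs. With a replicate block, 213 genes of strongest pairs were called, 125 higher on LD and 88 higher on CD. These were 13.48% and 9.49% of those tested, beside 13.47% and 10.04% of all genes. Under the block Apoa4, Ccnd1 and Fgf21 had adjusted p-values of 0.0615, 0.0577 and 0.109 and were not called. Their log2 fold changes there were 1.53, 0.699 and 1.28. Depth limits the genes of low counts, of which 421 fell under the filter. Without it 1155 of the 1348 genes were tested, and the other 193 were listed at 0 in every mouse. The scores and TADs of pooled libraries carry no replicate error.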
